A study of Monodelphis domestica with 18 samples.

Results

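The late step of the orbital shear stress (OSS) course, from 48 to 96 h, was examined in opossum kidney (OK) cells, an established opossum proximal tubule line. The samples are labelled Monodelphis domestica, the species of the genome that reads were mapped to, whereas the line is generally described as coming from the American opossum, Didelphis virginiana, and the effect of that mismatch on counts was not tested. The 3 OSS 96 h samples were compared with the 3 OSS 48 h samples, which makes 6 of the 18 samples of the series. Genes were kept when they exceeded 1 CPM (a library's count scaled to its total, with TMM factors) in at least 6 of the 18 libraries, and 12840 of 23899 genes with counts passed. Cells were plated above confluence on permeable filter supports. The next day (0 h) filters were moved to an orbital shaker turning at 146 rpm or stayed static. Static 48 h and Static 96 h samples, also 3 each, hold cells of the same plating design without shaking. OSS 12 h and Static 0 h samples were used only as background. Each sample combined the RNA of 3 experiments, and the spread between samples is that of pooled RNA. OK cells are a single line, and the sample notes name no genetic change or drug in any of these groups.

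Proximal tubule cells recover most of the filtered protein, phosphate, sugar and amino acids, and they are packed with mitochondria that pay for this transport. Such cells divide rarely in the intact kidney. Fluid moving over the apical surface bends microvilli and the cilium, and OK cells kept under OSS are used because they take on more features of the tubule than static cells. The paper states that OSS gives the cells more oxygen as well as mechanical stimulation. These samples cannot tell the effects of oxygen and of fluid movement apart. The comparison asks what still changes after the first 48 h of OSS.

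Total counts were 50595016, 69211273 and 65125958 in OSS 48 h replicates 1 to 3 and 40154553, 73426988 and 79745362 in OSS 96 h. Libraries with the same replicate number deviated from their group means in the same genes. Replicate 1 stood apart, most of all in defence genes, where its levels were far below those of replicates 2 and 3 at both times. For that reason each result is given without and, where it changes the call, with the replicate number as a block in the model ("with the block"), both from edgeR, and the main results also from replicates 2 and 3 alone. Genes that define the proximal tubule were well expressed. Of 25 such genes, 21 were tested, among them LRP2 (megalin) and CUBN (cubilin), whereas AQP1 had 0 to 3 counts in each OSS library of the 2 times, and GGT1, SLC22A8 and SLC13A3 were not tested either. Markers of other nephron segments summed to 189 to 213 CPM in OSS 48 h and 218 to 261 CPM in OSS 96 h. Endothelial, immune and stromal markers summed to 195 to 283 and 256 to 346 CPM. Among the latter, EMCN and COL3A1 had 0 counts in all 6 libraries, which allows up to 3 counts in each, and PTPRC, which marks leukocytes, had 7 to 16.

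From 48 to 96 h of OSS, 87 genes rose and 60 fell in the quasi-likelihood test of edgeR (adjusted p under 0.05), which is 1.14% of the genes tested. Cell division and DNA replication genes rose, and mitochondrial, amino acid carrier and antioxidant genes were among those that fell. Changes were small: 12 of the genes that rose and 2 of those that fell changed at least 2-fold. The median log2 fold change of all tested genes was -0.0070. In each of the 147 genes the 3 OSS 96 h libraries lay on 1 side of the 3 OSS 48 h libraries and all 3 same-numbered pairs moved the same way. The test that picked these genes favours such separation, so it adds no support. Of all tested genes 30.4% were higher and 30.1% lower at 96 h in all 3 pairs. With the block, 1335 genes rose and 1131 fell (19.2%), and all 147 were called in the same direction. DESeq2 called 8.61%. Leaving out single libraries left 1 to 15 calls. With replicates 2 and 3 alone 77 genes rose (0.6%) and 19 fell (0.148%), 0.748% together, and 39 of the 147 were called in the same direction.

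The clearest pattern was a return of cell cycle transcripts. The 55 mitosis genes tested summed to 2645, 2628 and 2645 CPM in the OSS 48 h libraries and to 3875, 3612 and 4440 CPM in the OSS 96 h libraries. The lowest 96 h library thus lay well above the highest 48 h library. Of these genes 5 rose (background 0.678% of all genes) and 0 fell at the adjusted threshold, with a median log2 fold change of 0.60. At an unadjusted p under 0.05, 49 were higher, against 10.2% of all genes, and 0 lower, and DESeq2 called 43 higher and 0 lower, against 5.24% and 3.36% of all genes. With the block 49 rose and 0 fell, where 10.4% of all genes rose. With replicates 2 and 3 alone the median was 0.61, but 0 members were called, where 0.6% of all genes rose. Each fit that left out a single library also called 0 members. In all 3 same-numbered pairs 54 of the 55 were higher at 96 h, against 30.4% of all genes. The exception, BUB3, a checkpoint protein, had a log2 fold change of -0.019. More RNA per dividing cell and more dividing cells cannot be told apart in these bulk samples, here or in the results that follow.

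**Figure D1:**
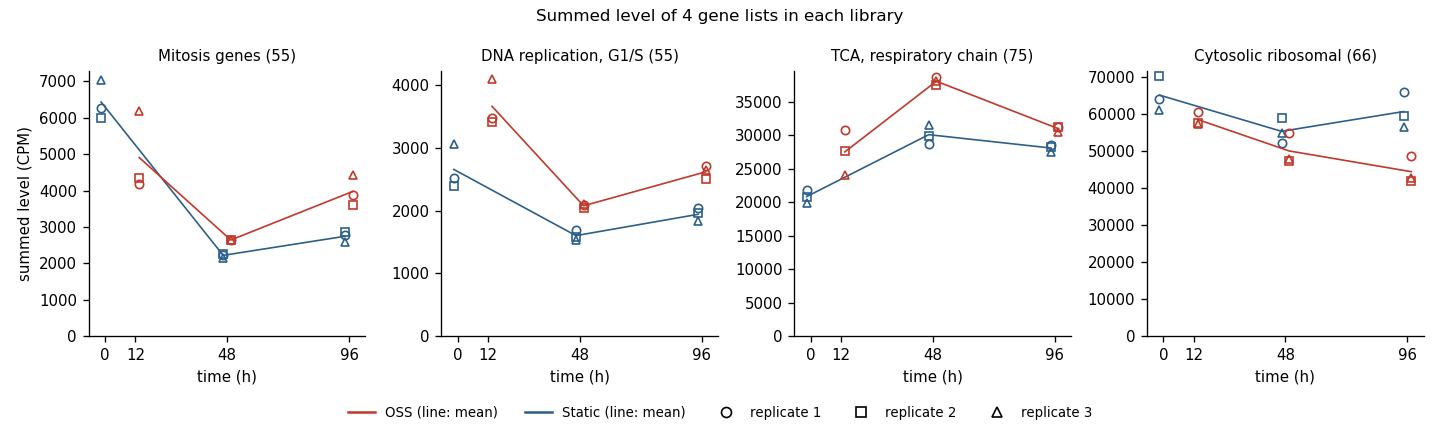
Summed level in CPM (y axis, from 0) of 4 gene lists in each library against time in h (x axis), with OSS in red, Static in blue, a marker for each replicate number and lines through the means. In OSS the mitosis genes went from 2628 to 2645 CPM at 48 h up to 3612 to 4440 CPM at 96 h, while the TCA cycle and respiratory chain genes went from 37514 to 38671 CPM down to 30546 to 31272 CPM.

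TOP2A (ENSMODG00000013152), the topoisomerase that untangles sister chromatids, lay at 389, 402 and 387 CPM in OSS 48 h and 669, 648 and 761 CPM in OSS 96 h. Its log2 fold change was 0.81 (standard error 0.14, edgeR adjusted p = 0.0394). The 3 libraries of each time were close together and far from those of the other. CKAP2 (ENSMODG00000010436), a spindle microtubule protein, went from 12.1, 10.8 and 9.92 to 22.3, 17.9 and 21.4 CPM (0.91, edgeR adjusted p = 0.0458). HMMR, which organises spindle poles, and MAD2L1, a spindle checkpoint protein, rose by 0.78 and 0.72 on the log2 scale (edgeR adjusted p = 0.038 and 0.0458). The fifth, the mitotic kinase MELK, singled out after its value was seen, rose by 0.65 (edgeR adjusted p = 0.0439). CENPF, a kinetochore protein, lay at 109, 108 and 112 CPM and then 179.8, 167 and 245 CPM and was called in edgeR with the block but not without it (adjusted p = 0.0055 and 0.106). KIF20A, a kinesin of cytokinesis, was likewise called in edgeR with the block but not without it (0.78, adjusted p = 0.00877 and 0.0649). DESeq2, which had no block, called both.

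DNA replication and G1/S genes went the same way. Of 55 tested, 9 rose (0.678% of all genes) and 0 fell, with a median log2 fold change of 0.36. With the block 36 rose and 1 fell, against 10.4% and 8.81% of all genes. With replicates 2 and 3 alone 1 rose (0.6% of all genes) and the median was 0.34. Leaving out single libraries left 0 to 2 calls. The summed level of the 55 genes was 2084, 2036 and 2106 CPM in OSS 48 h and 2710, 2496 and 2644 CPM in OSS 96 h, with no overlap. RRM2 (ENSMODG00000014763), a subunit of the reductase that makes deoxynucleotides, showed one of the steepest rises, from 67.7, 68.5 and 67.9 to 144, 118 and 147 CPM. Its log2 fold change was 1.00 (standard error 0.11, edgeR adjusted p = 0.00979), and it passed in 2 of the 6 fits that left out 1 library. A second identifier carries the same symbol, so reads may be split between copies. E2F8 (ENSMODG00000009029), a transcription factor that restrains E2F targets late in S phase, rose from 17.6, 16.5 and 16.9 to 33.2, 26.0 and 29.7 CPM (0.80, edgeR adjusted p = 0.0315). CCNE2, a cyclin of S phase entry, rose by 0.74 (edgeR adjusted p = 0.0231). It passed in 1 of the 6 fits that left out 1 library, and E2F8 in 0. The sliding clamp PCNA, the helicase subunits MCM4 and MCM6, the polymerase POLE, the kinase TK1 and the chromatin assembly factor CHAF1A, all named as the remaining called members, rose by 0.34 to 0.63 on the log2 scale.

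Several of the largest single rises outside these lists belong to the same process. PCLAF (ENSMODG00000027710), which binds the PCNA clamp, lay at 21.2, 22.9 and 22.5 CPM and then 39.2, 35.5 and 42.9 CPM (0.81, edgeR adjusted p = 0.0302). KNTC1, a kinetochore protein, and FBXO5, an inhibitor of the anaphase-promoting complex, rose by 0.81 and 0.80 (edgeR adjusted p = 0.0424 and 0.0489). The same genes had gone down before: from 12 to 48 h of OSS, when 12.8% of all genes fell, 53 of the 55 mitosis genes and 43 of the 55 DNA replication genes fell. That earlier step shares the OSS 48 h libraries with the later one, so the directions are not independent. The OSS 96 h sums stayed below the 4177, 4356 and 6185 CPM of mitosis genes in OSS 12 h, except that replicate 3 at 96 h (4440 CPM) exceeded replicates 1 and 2 at 12 h.

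The sums of the mitosis genes were also higher at 96 h in Static cells. They came to 2239, 2269 and 2145 CPM in Static 48 h and to 2770, 2867 and 2592 CPM in Static 96 h, again with no overlap. The median log2 fold change was 0.28 and that of the DNA replication genes 0.31. No member passed the adjusted test in Static, either without the block, where 0.0389% of all genes were called, or with it (0.802%). At an unadjusted p under 0.05, 30 mitosis genes and 20 DNA replication genes were higher in Static, against 5.58% of all genes, and DESeq2 called 15 and 5 of them higher, against 0.95%. The OSS change minus the Static change had a median of 0.26 for mitosis genes and 0.042 for DNA replication genes. Without the block no member of either list differed between OSS and Static at the adjusted threshold, 9 mitosis genes and 2 DNA replication genes were more positive in OSS at an unadjusted p under 0.05 (6.7% of all genes), and DESeq2 called 0 (0.584%). With the block no mitosis gene differed, and 1 DNA replication gene was more negative in OSS (0.436% of all genes). This was RPA3, a subunit of the protein that coats single-stranded DNA, with a difference of -0.44 (edgeR adjusted p = 0.027), named after its value was seen.

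Nuclear genes of the TCA cycle and respiratory chain fell. Of 75 tested, 4 fell and 0 rose (background 0.467% of all genes fell), and with the block 55 fell, where 8.81% of all genes did. The median log2 fold change was -0.30, and 73 of the 75 were lower at 96 h in all 3 same-numbered pairs, against 30.1% of all genes. With replicates 2 and 3 alone 2 fell (0.148% of all genes) and the median was -0.29. Each fit that left out a single library called 0 members. Summed levels were 38671, 37514 and 38137 CPM in OSS 48 h and 31198, 31272 and 30546 CPM in OSS 96 h. In the step from 12 to 48 h, 47 of them rose and 0 fell, against 14.3% and 12.8% of all genes. In Static their median was -0.073, with 9 lower at an unadjusted p under 0.05 (8.05% of all genes) and 0 called by edgeR or by DESeq2, which called 1.28% of all genes lower. The median of the difference was -0.24, no member differed between OSS and Static in edgeR without the block, 20 were more negative in OSS at an unadjusted p under 0.05 (5.61% of all genes), and DESeq2 called 3 (1.17%). With the block 1 member was more negative in OSS, NDUFB7 of complex I, with a difference of -0.50 (edgeR adjusted p = 0.0218).

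ATP5MC1 (ENSMODG00000012296), which encodes the proton-carrying c subunit of ATP synthase, was among the 15 largest falls of called genes. It lay at 974, 993 and 1028 CPM in OSS 48 h and 658, 646 and 606 CPM in OSS 96 h (-0.65 on the log2 scale, standard error 0.11, edgeR adjusted p = 0.0349). ATP5F1D, another ATP synthase subunit, went from 39.6, 40.3 and 45.5 to 29.1, 27.2 and 28.4 CPM (-0.57, edgeR adjusted p = 0.0226). COX6B1 of cytochrome oxidase, NDUFB7 of complex I and IDH3B, a subunit of the TCA cycle's isocitrate dehydrogenase, had log2 fold changes of -0.50, -0.46 and -0.41 (edgeR adjusted p = 0.038, 0.0315 and 0.0482). Outside the list, SAMM50 (ENSMODG00000006205), which inserts barrel proteins into the outer mitochondrial membrane, fell from 291, 269.6 and 299 to 188, 198 and 193 CPM (-0.57, edgeR adjusted p = 0.00979). Among the called genes, the import subunit TIMM50, the outer membrane protein MTX1 and the mitochondrial ribosomal proteins MRPL2, MRPL4 and MRPS18A also fell, with log2 fold changes of -0.40 to -0.25, and were singled out after their values were seen. Mitochondrial reads had been removed upstream, so genes of the mitochondrial genome were not analysed here.

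Cytosolic ribosomal protein genes shifted slightly downward. Of 66 tested, 2 fell (0.467% of all genes) and 0 rose, and with the block 31 fell, against 8.81% of all genes. All but 1 were negative and the median was -0.19. RPS4X, a protein of the small subunit, fell with a log2 fold change of -0.29 (edgeR adjusted p = 0.0458). In Static the median was 0.13, and the difference had a median of -0.32. In edgeR 0 members differed without the block, and 3 were more negative in OSS with it (0.436% of all genes). At an unadjusted p under 0.05, 29 were more negative in OSS (5.61% of all genes), and DESeq2 called 10 (1.17%). Ribosomal and respiratory genes are short, with median gene lengths of 1055 and 1121 bases against 2512 over all genes, and log2 fold changes in OSS rose with length. The median was -0.064 in the shortest 3210 genes and 0.045 in the longest 3209, and in Static it ran from 0.052 to -0.062. With a length correction and the block together the ribosomal median was -0.13 with 19 falls, the respiratory median -0.27 with 44 falls and the mitosis median 0.57 with 49 rises, where 10.3% of all genes rose and 7.27% fell.

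Genes for secreted plasma proteins were among the largest rises. SERPINA3 (ENSMODG00000012575), which encodes antichymotrypsin, lay at 3.64, 8.80 and 7.05 CPM in OSS 48 h and 18.7, 36.8 and 23.2 CPM in OSS 96 h. Its rise of 2.01 on the log2 scale (standard error 0.34, edgeR adjusted p = 0.0368) was the largest among called genes. Replicate 1 was the lowest library at both times, and the groups did not overlap. SERPINA10 (ENSMODG00000002379), an inhibitor of coagulation factors, went from 3.08, 4.32 and 2.13 to 9.20, 13.3 and 12.4 CPM (1.87, edgeR adjusted p = 0.0315). SERPINA2 (ENSMODG00000012391), of the same family, rose from 159.6, 194 and 157 to 297, 353 and 332 CPM (0.94, edgeR adjusted p = 0.0226). SERPINA5, the protein C inhibitor, went the other way, from 2.82, 2.50 and 1.76 to 0.750, 0.986 and 0.677 CPM, and was called in edgeR with the block but not without it (-1.55, adjusted p = 0.00333 and 0.073), and also in DESeq2. Over the 26 secreted protease inhibitors 2 rose (0.678% of all genes), and the median was 0.52. With the block 14 rose and 1 fell (10.4% and 8.81% of all genes).

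**Figure D2:**
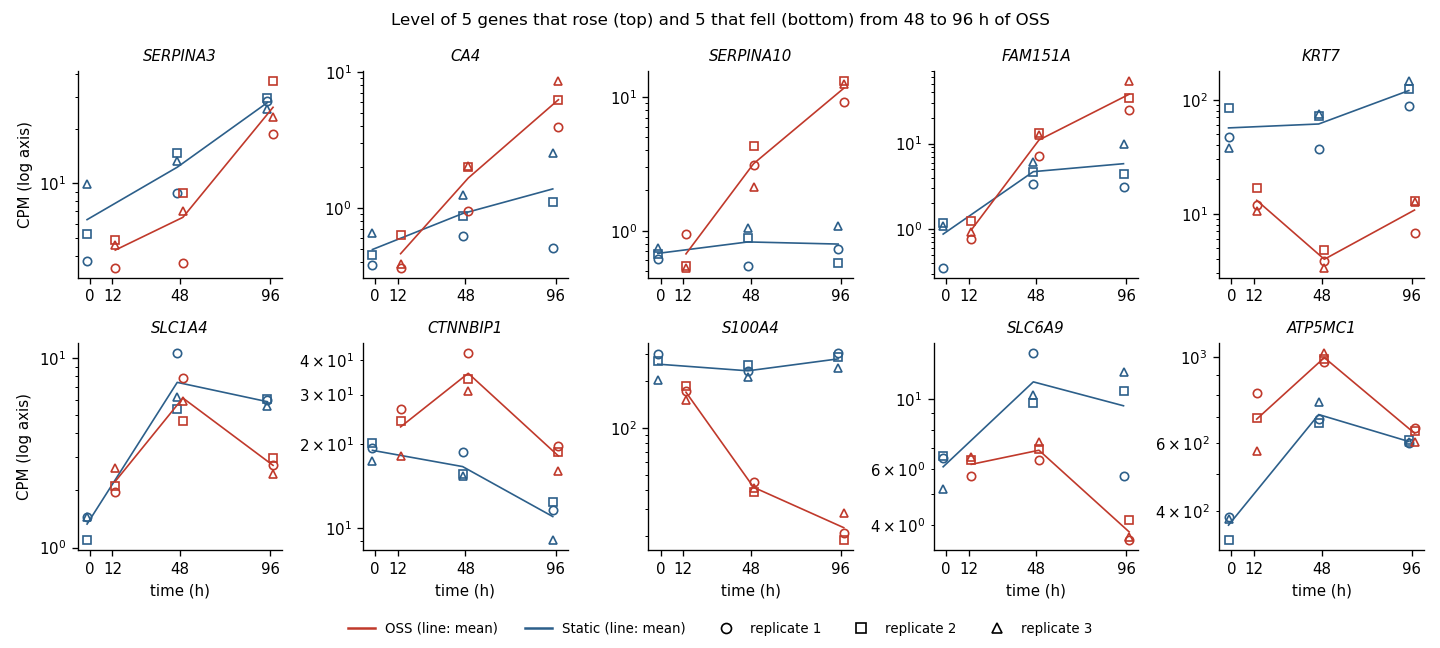
Level in CPM on a log axis (y) against time in h (x) for 5 genes that rose (top) and 5 that fell (bottom) from 48 to 96 h of OSS, with a marker for each replicate number and lines through the means of OSS (red) and Static (blue). In each of the 10 genes the 3 OSS 96 h libraries lie on 1 side of the 3 OSS 48 h libraries; KRT7 and S100A4 were far lower in OSS than in Static at both times.

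Plasma carriers and apolipoproteins had the highest median of all lists, 0.67 over 22 genes, but none passed without the block. At an unadjusted p under 0.05, 6 were higher (10.2% of all genes), and DESeq2 called 5 higher (5.24%). With the block 14 rose and 0 fell, against 10.4% and 8.81% of all genes. VTN, the adhesive plasma protein vitronectin, lay at 1.73, 2.88 and 2.10 CPM and then 5.98, 13.7 and 6.68 CPM, with adjusted p = 0.054 without the block and 0.000501 with it. HPX, the heme carrier hemopexin, lay at 2.92, 87.8 and 73.7 CPM and then 61.5, 376 and 346 CPM, where replicate 1 at 96 h was below replicates 2 and 3 at 48 h. Its log2 fold change was 2.25 (adjusted p = 0.317 without the block and 0.00207 with it). CLU, the extracellular chaperone clusterin, lay at 1456, 3039 and 3130.1 CPM and then 2857, 6321 and 7612 CPM (1.11 with the block, adjusted p = 0.00374). The summed level of markers of other nephron segments was higher at 96 h too, in the ranges given above. None of the 14 tested was called without the block or by DESeq2, and with the block 6 rose (10.4% of all genes) and 0 fell. Their part in these results was not tested.

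A carbonic anhydrase and enzymes of tryptophan and hydroxyproline breakdown were among the other large rises. CA4 (ENSMODG00000014115), a membrane-bound carbonic anhydrase of the brush border, lay at 0.954, 2.00 and 2.04 CPM and then 3.93, 6.19 and 8.64 CPM. It rose by 1.90 on the log2 scale (standard error 0.37), with an adjusted p in edgeR just below the threshold and of 0.000853 with the block. FAM151A (ENSMODG00000003909) went from 7.13, 13.1 and 12.8 to 24.5, 34.3 and 54.7 CPM (1.78, edgeR adjusted p = 0.0426). In both genes each 96 h library lay above all 48 h libraries. HAAO (ENSMODG00000000392), an enzyme of the kynurenine route to NAD, rose from 132, 126 and 131 to 234, 187 and 268 CPM (0.82, edgeR adjusted p = 0.0368). HOGA1 (ENSMODG00000003963), which splits hydroxyoxoglutarate in mitochondrial hydroxyproline breakdown, rose from 38.7, 43.5 and 42.0 to 68.2, 63.6 and 67.5 CPM. Its log2 fold change of 0.68 had the small standard error of 0.062 (edgeR adjusted p = 0.00905). HOGA1 passed in 4 of the 6 fits that left out 1 library, SERPINA2 and KRT7 in 1 each. CA4, FAM151A, HAAO, SERPINA3 and SERPINA10 passed in 0 of these fits. SLC5A10, a sugar carrier, and IYD, the iodotyrosine deiodinase, rose by 0.75 and 0.70 (edgeR adjusted p = 0.0333 and 0.0315). Over 54 genes of amino acid, urea and glyoxylate breakdown, HAAO and IYD were the 2 that rose, against 0.678% of all genes. With the block 10 rose and 10 fell, where 10.4% and 8.81% of all genes did.

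KRT7, a keratin of simple epithelia that is often counted as an injury marker, rose from 3.82, 4.83 and 3.32 to 6.75, 12.99 and 12.6 CPM (1.44, edgeR adjusted p = 0.0482). STRIP2, a striatin-binding protein, rose from 2.19, 2.70 and 2.25 to 5.23, 5.47 and 6.62 CPM (1.27, edgeR adjusted p = 0.0439). SYNPR, the vesicle protein synaptoporin, and SP4, a zinc finger transcription factor, rose by 0.95 and 0.83 (edgeR adjusted p = 0.038 and 0.0426). Among 30 dedifferentiation and injury markers 1 rose, KRT7, and 1 fell, S100A4, against 0.678% and 0.467% of all genes. With the block 12 rose and 6 fell, against 10.4% and 8.81% of all genes. F11R, a tight junction adhesion molecule, was the 1 of 38 cell junction genes that rose (0.37, edgeR adjusted p = 0.0474), against 0.678% of all genes. With the block 12 junction genes rose and 1 fell, against 10.4% and 8.81% of all genes. The rises were led by CDH1 (E-cadherin), which lay at 24.0, 44.1 and 27.0 CPM and then 52.8, 86.7 and 64.5 CPM (adjusted p = 0.0846 without and 6.29e-05 with the block). CLDN4, a claudin, lay at 10.95, 8.70 and 13.7 CPM and then 26.6, 17.5 and 25.3 CPM (adjusted p = 0.0959 and 0.00175).

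The largest falls included carriers and enzymes of amino acid and glutathione handling. SLC1A4 (ENSMODG00000003310), a neutral amino acid exchanger, lay at 7.83, 4.64 and 5.96 CPM in OSS 48 h and 2.73, 2.96 and 2.45 CPM in OSS 96 h (-1.18 on the log2 scale, standard error 0.21, edgeR adjusted p = 0.0394). SLC6A9 (ENSMODG00000002931), the glycine carrier, fell from 6.40, 6.94 and 7.33 to 3.58, 4.16 and 3.68 CPM (-0.86, edgeR adjusted p = 0.0257). Both are also targets of the amino acid response, and they were the 2 of its 38 genes that fell, against 0.467% of all genes. With the block 13 fell and 4 rose, against 8.81% and 10.4% of all genes. Among the falls was CHAC1, a glutathione-degrading enzyme (10.1, 10.6 and 14.3 CPM and then 5.35, 5.93 and 6.35 CPM, adjusted p = 0.0543 without and 0.00203 with the block). GSTT2B (ENSMODG00000007141), a glutathione transferase, fell from 149, 143 and 145 to 87.4, 96.5 and 84.5 CPM (-0.70, edgeR adjusted p = 0.0315). Of 36 NRF2 targets and antioxidant genes 3 fell (0.467% of all genes) and 0 rose, and with the block 8 fell and 2 rose, against 8.81% and 10.4% of all genes. Among the 3, ME1, which makes NADPH, and BLVRB, a biliverdin reductase, had log2 fold changes of -0.40 and -0.44 (edgeR adjusted p = 0.046 and 0.0258).

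CTNNBIP1 (ENSMODG00000002885), which keeps beta-catenin from its transcription partners, fell from 42.4, 34.0 and 30.9 to 19.7, 18.7 and 15.9 CPM (-0.99, edgeR adjusted p = 0.0334). SULF2 (ENSMODG00000016247), an extracellular heparan sulfatase, fell from 461, 433 and 395 to 259, 283 and 240.4 CPM (-0.72, edgeR adjusted p = 0.0334). S100A4 (ENSMODG00000017397), a calcium-binding protein of motile cells, continued the decline seen from 12 to 48 h and went from 44.7, 38.4 and 41.2 to 20.9, 18.8 and 28.4 CPM (-0.87, edgeR adjusted p = 0.038). The libraries of the 2 times did not overlap in any of these 3 genes. SCARA5, a ferritin receptor, and ANKH, a pyrophosphate exporter, had log2 fold changes of -0.72 and -0.67 (edgeR adjusted p = 0.0185 and 0.0329). CCDC89, CPAMD8, MPP1 and ABCB9, other large falls, had values of -0.94, -0.86, -0.61 and -0.59. AP2A1, a subunit of the clathrin adaptor at the plasma membrane, was the 1 of 53 apical endocytic genes that fell (-0.39, edgeR adjusted p = 0.0458). Of all genes 0.467% fell. With the block 4 of the 53 rose and 14 fell, against 10.4% and 8.81% of all genes.

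Defence genes held some of the largest fitted rises but differed widely between replicate numbers. All 39 inflammation and mucosal defence genes had positive log2 fold changes, with a median of 0.56. In edgeR without the block 1 rose (0.678% of all genes), CLCA1, a secreted mucus protein whose reads are shared among near-identical copies, so its value is uncertain. DESeq2 called 5 higher (5.24% of all genes) and 0 lower. With the block 27 rose and 0 fell, against 10.4% and 8.81% of all genes. LPO (ENSMODG00000014744), the secreted enzyme lactoperoxidase, lay at 0.0397, 5.88 and 8.90 CPM in OSS 48 h and 1.90, 63.5 and 70.0 CPM in OSS 96 h. Its log2 fold change was 3.17 (standard error 1.27, adjusted p = 0.211 without the block and 6.29e-05 with it). Every pair rose, yet replicate 1 at 96 h was lower than replicates 2 and 3 had been at 48 h. PIGR (ENSMODG00000002141), which carries antibodies across epithelia, lay at 6.44, 156 and 153 CPM and then 172, 743 and 860.1 CPM (adjusted p = 0.271 and 0.0028). LCN2 (ENSMODG00000017313), the iron-binding injury marker lipocalin, lay at 1.53, 28.2 and 24.2 CPM and then 13.9, 108 and 158 CPM (adjusted p = 0.275 and 0.000485). TNFSF15, a cytokine of the tumour necrosis factor family, lay at 1.17, 17.8 and 32.9 CPM and then 34.8, 104 and 178 CPM (adjusted p = 0.186 and 0.001).

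**Figure D3:**
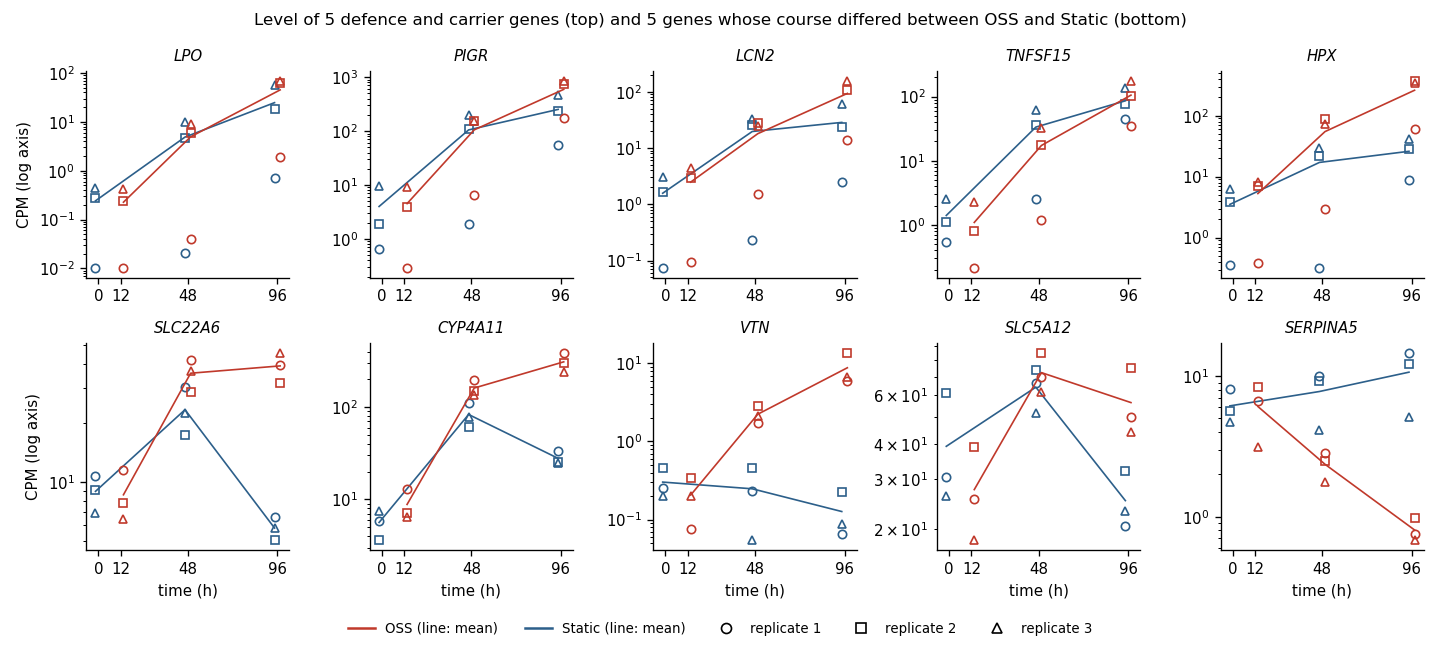
Level in CPM on a log axis (y, with values of 0 drawn at 0.01) against time in h (x) for 5 defence and carrier genes (top) and 5 genes chosen because their course differed between OSS (red) and Static (blue) with the block (bottom). In the top row replicate 1 (circles) lies below replicates 2 and 3 at 48 and 96 h of OSS, as for LPO with 0.0397, 5.88 and 8.90 CPM at 48 h, and all 3 replicates rise.

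In replicates 2 and 3 alone the median of the 39 defence genes was 0.43, and 4 rose (0.6% of all genes). CD14, a surface marker of monocytes on the immune marker list, lay at 71.7, 136 and 153 CPM and then 133, 198 and 205 CPM and rose with the block (adjusted p = 0.0104). The whole marker set of 12 tested genes had 3 rises and 1 fall with the block (10.4% and 8.81% of all genes) and no call without it or in DESeq2. Its part in the defence gene result was not tested. Static cells showed a median of 0.39 over the same 39 genes. No member differed between OSS and Static in edgeR without or with the block, or in DESeq2. At an unadjusted p under 0.05, 1 was more positive in OSS, against 6.7% of all genes.

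The proximal tubule panel moved little as a group. None of its 21 tested genes passed without the block, and the median was -0.079. At an unadjusted p under 0.05, 1 was higher and 1 lower, against 10.2% and 9.63% of all genes. DESeq2 also called 1 higher and 1 lower, against 5.24% and 3.36% of all genes. LRP2 lay at 6029, 6294 and 5464 CPM in OSS 48 h and 6899, 6685 and 5628 CPM in OSS 96 h (0.11), and HNF4A, a transcription factor of the tubule, at 201, 214 and 207 CPM and 184, 206 and 195 CPM (-0.091). With the block SLC34A3, a phosphate carrier, rose (0.83, adjusted p = 0.00129). Cubilin (CUBN, -0.23), the cadherin CDH6 (-0.30), the lactate carrier SLC5A12 (-0.39) and the bicarbonate carrier SLC4A4 (-0.41) fell with the block. From 12 to 48 h, by contrast, 19 of the 21 had risen and 1 had fallen, against 14.3% and 12.8% of all genes. Of 32 brush border genes 0 were called without the block, and DESeq2 called 5 higher and 0 lower, against 5.24% and 3.36% of all genes. With the block 10 rose and 3 fell, against 10.4% and 8.81% of all genes. XPNPEP2, an aminopeptidase of the microvilli, lay at 78.8, 129 and 116 CPM and then 184, 280.0 and 305 CPM (adjusted p = 0.0522 without and 0.000119 with the block). MYO1A, the brush border myosin, lay at 1.69, 2.40 and 2.30 CPM and then 0.575, 1.07 and 1.41 CPM (adjusted p = 0.154 and 0.0149).

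Gluconeogenesis and fructose genes, a hallmark of the proximal tubule, had a median log2 fold change of -0.28. Without the block 0 of 22 passed, 11 were lower at an unadjusted p under 0.05 (9.63% of all genes) and DESeq2 called 6 (3.36%), and with the block 13 fell (8.81% of all genes) and 0 rose. KHK, the fructose kinase, lay at 1931, 1742 and 1652 CPM and then 1328, 1389.6 and 1205 CPM, with no overlap (adjusted p = 0.0909 without and 0.00374 with the block). GOT1, a transaminase of the malate-aspartate shuttle, lay at 170.1, 182 and 194 CPM and then 116, 145 and 135 CPM (adjusted p = 0.0774 and 0.016). PCK1, the rate-limiting enzyme, had a log2 fold change of 0.10 (adjusted p = 0.683 and 0.507). PKLR, the pyruvate kinase of liver and kidney, was the 1 of 26 glycolysis genes that fell, against 0.467% of all genes. It went from 151, 149.7 and 138 CPM to 103, 111 and 101 CPM (-0.48, edgeR adjusted p = 0.038). The gluconeogenesis median in Static was -0.34, and the difference between OSS and Static had a median of 0.050.

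**Figure D4:**
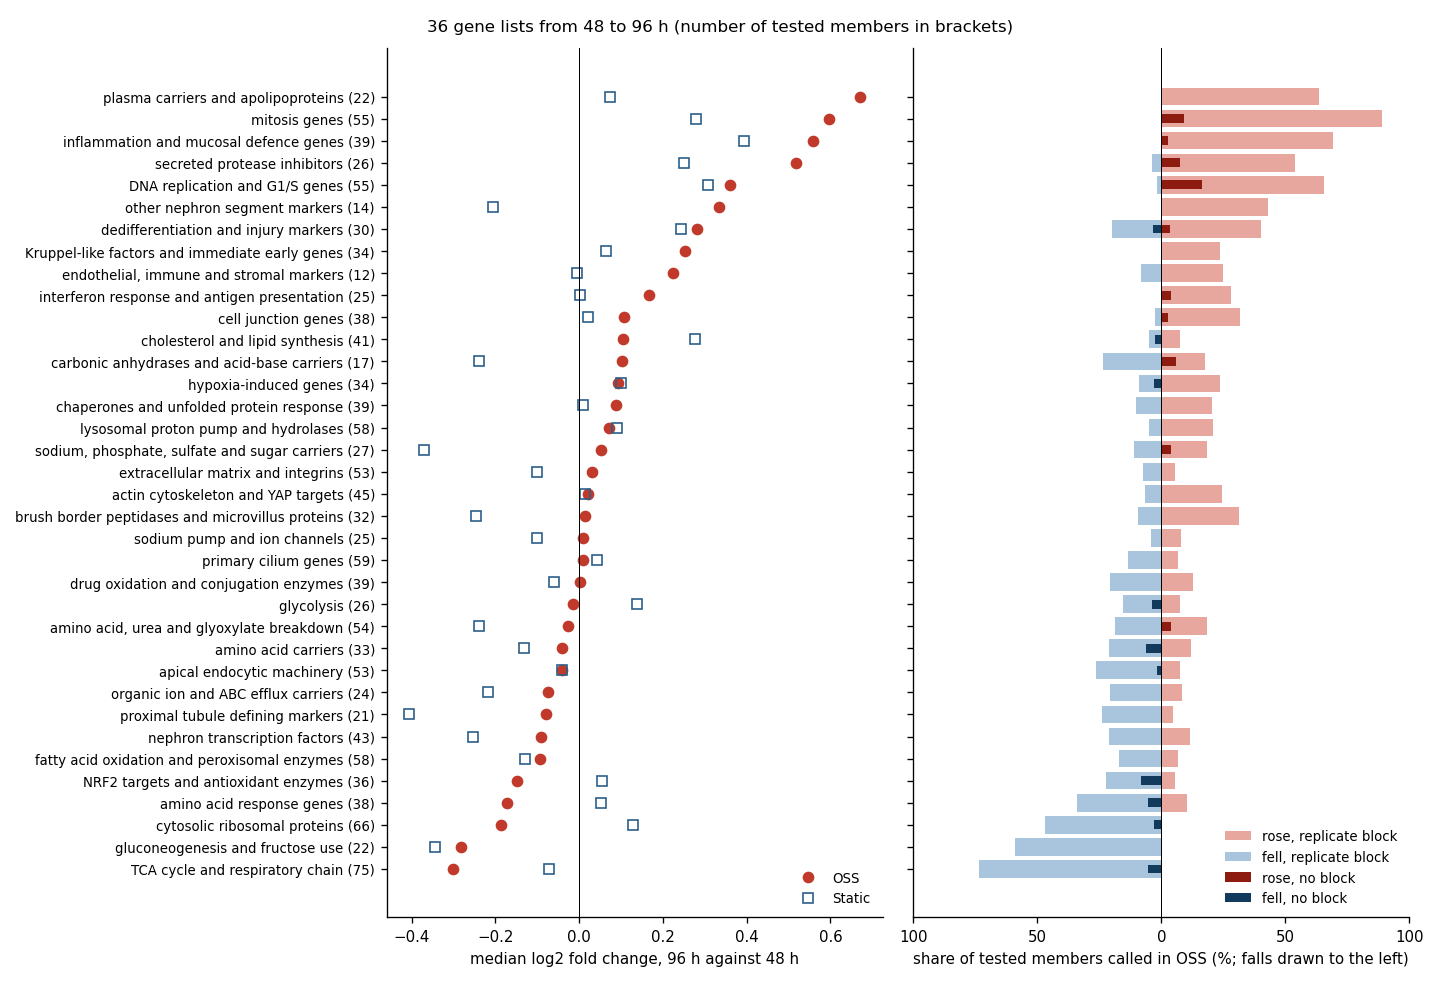
Median log2 fold change from 48 to 96 h (left, x axis) of 36 gene lists (y axis, tested members in brackets) in OSS (red) and Static (blue), and the share of members in percent that rose or fell in OSS without and with the replicate block (right, x axis, falls to the left). Mitosis genes reach a median of 0.60 in OSS and TCA cycle and respiratory chain genes -0.30.

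Whether these late changes were particular to OSS was tested as the OSS change minus the Static change. Of the 87 genes that rose in OSS, 75 also had a positive log2 fold change in Static, and of the 60 that fell, 43 were negative there. Over all tested genes the median log2 fold change in Static was -0.0043, so signs there were split about evenly. The share of all genes with the same sign in OSS and Static was not counted. No gene passed the test of the difference in edgeR, while 860 were more positive and 720 more negative in OSS at an unadjusted p under 0.05, and DESeq2 called 75 and 150. In Static, edgeR called 0 rises and 5 falls, with 716 higher and 1033 lower at an unadjusted p under 0.05 and 122 and 164 called by DESeq2. With the block, 82 genes were more positive (0.639%) and 56 more negative (0.436%) in OSS, 1.07% together. In Static 21 rose (0.164%) and 82 fell (0.639%) with the block, 0.802% together.

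**Figure D5:**
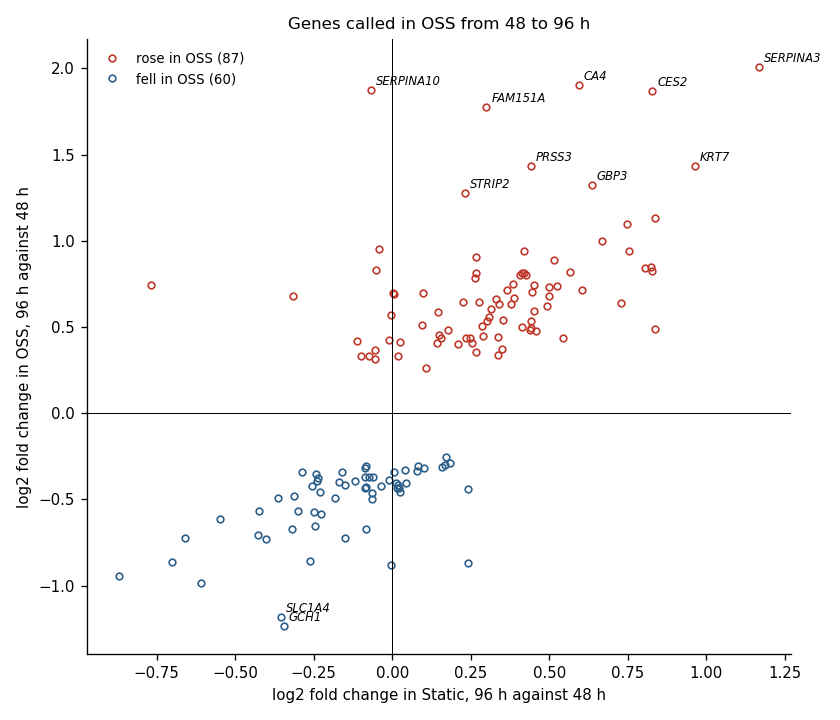
Log2 fold change from 48 to 96 h in OSS (y axis) against that in Static (x axis) for the 147 genes called in OSS, with rises in red and falls in blue. Of the 87 rises 75 lie right of 0, and of the 60 falls 43 lie left of 0, with SERPINA10 among the rises on the other side. The median of all tested genes in Static was -0.0043.

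The 6 genes with the smallest p for the difference were CYP4A11, SLC22A6, HOGA1 and BTG1, which were more positive in OSS, and LAMTOR1 and PGLS, which were more negative. In edgeR all 6 were called with the block and none without it, and DESeq2 called all 6. CYP4A11 (ENSMODG00000001890), a fatty acid hydroxylase, lay at 197, 151 and 135 CPM in OSS 48 h and 389, 300.1 and 239 CPM in OSS 96 h, and at 110.1, 60.7 and 78.8 CPM and 33.1, 25.4 and 24.9 CPM in Static. The difference of the log2 fold changes was 2.49 with the block (standard error 0.27, adjusted p = 0.000653, and 0.12 without the block). SLC22A6 (ENSMODG00000008309), the organic anion transporter of the basolateral membrane, lay at 41.8, 28.6 and 36.9 CPM and 39.5, 31.8 and 45.5 CPM in OSS and at 30.3, 17.3 and 22.3 CPM and 6.60, 5.03 and 5.82 CPM in Static. Its difference was 2.12 with the block (standard error 0.23, adjusted p = 0.000653, and 0.12 without the block). In OSS its groups overlapped, and in Static they were far apart. HOGA1 differed by 0.99 with the block (adjusted p = 0.0149, and 0.132 without it), and BTG1, a growth regulator, by 0.82 (adjusted p = 0.0149 and 0.12). LAMTOR1, a lysosomal scaffold, lay at 56.1, 53.6 and 53.8 CPM and 49.8, 49.6 and 47.5 CPM in OSS and at 42.2, 44.1 and 46.5 CPM and 57.3, 53.7 and 56.3 CPM in Static, with a difference of -0.48 (adjusted p = 0.0193 with the block and 0.132 without it). PGLS, an enzyme of the pentose phosphate route, differed by the same -0.48 (adjusted p = 0.0243 and 0.132). LAMTOR1 and PGLS are short, at 519 and 789 bases, and the length trends of OSS and Static ran in opposite directions. With the block their changes in OSS were -0.16 and -0.29. With the length correction added they were -0.074 and -0.22 (edgeR adjusted p = 0.307 and 0.0348). The length-corrected difference of single genes is not given here. Among the 21 proximal tubule markers 4 differed with the block, each more positive in OSS (0.639% of all genes), and the median of the 21 in Static was -0.41.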

How the data were processed

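Stranded total RNA libraries (TruSeq) were sequenced as 75 bp paired reads on an Illumina NextSeq after removal of rRNA. Per the labels, the authors' tools were cutadapt, TopHat2 and featureCounts of Subread. The paper names MonDom5 as the genome. Tool versions, the annotation release and the strand setting are not given in the sources used here, so overlapping genes on opposite strands may share reads. The deposited values are the authors' raw counts per Ensembl gene, after they had removed mitochondrial and rRNA reads. Symbols are those of the deposited table, and 11895 of the 12840 tested genes had one. Coordinates and sequences are not given here, because no genome of that build was used.

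Genes above 1 CPM in at least 6 of 18 libraries were tested in R 4.3.3 with edgeR 4.0.16 (limma 3.58.1): TMM factors, trended dispersions without a design, the older quasi-likelihood F-test, and Benjamini-Hochberg adjustment over all tested genes at 0.05. OSS steps were fitted on the 9 OSS libraries, Static steps on the 9 Static libraries, and their difference on all 18. Levels are TMM-scaled CPM. Standard errors were derived from F and the log2 fold change. DESeq2 1.42.0, other scalings, filters, library sets and single left-out libraries were alternatives. A lowess correction for gene length and a fit of replicates 2 and 3 were added after seeing the data.

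Deviations of OSS 48 h and OSS 96 h libraries from their group means correlated at 0.776, 0.528 and 0.633 for the same replicate number and at -0.645 to 0.377 for different numbers, across genes, which are not independent. In Static the same-number values were 0.633, 0.548 and 0.483. The numbers were taken from the sample titles. Neither the titles nor the paper say that a number follows the same cultures through time. Pairing by number was thus inferred from these same counts. Values with the replicate number as a block stand beside results that they change. Replicate libraries differed by far more than counting error, with a chi-square of at least 25.1 per gene.

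The genes compared and the 36 gene lists were chosen with earlier results of these data known. Lists are described by counts and medians, using the identifier with the highest mean where a symbol has several. Named genes were the 15 largest rises and falls among called genes with a unique symbol, a logCPM of at least 1 and groups that did not overlap. Added to these were up to 4 members per list called without or with the block, the tubule markers, and the 6 smallest p-values of the difference. The text names others as chosen after their values were seen. Some genes that the rule names are not reported here. On simulated counts for 12840 genes, the OSS fit recovered 92% of 100 genes changed 2-fold and 100% of 100 changed 4-fold, with 12 false calls. For the Static fit these were 78%, 99% and 7, and for the difference between OSS and Static 55%, 99% and 11. The simulated counts had no differences between replicate numbers, and their spread followed mean level alone. These percentages therefore do not apply to genes whose replicates differed more widely, such as HPX or LPO. Plots were made in Python 3.11.15 (matplotlib 3.10.9).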

Additional observations from a re-analysis of the deposited data

Results flagged for a closer look

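A difference between OSS and Static in the change from 48 to 96 h was called in edgeR for 23 of the 179 named genes with the block on replicate numbers. With the block, 1.07% of all tested genes were called. Some of the 179 genes were named for a small p for this same difference. Others were named for calls in OSS, whose libraries also enter this test. The share called among the 179 therefore partly follows from the choice of genes. Without the block none of the 12840 tested genes was called, 860 being more positive and 720 more negative in OSS at an unadjusted p under 0.05. Of the 23 genes 16 were also called by DESeq2, which had no block. For 22 of them, values are given as the OSS change minus the Static change on the log2 scale, with the block. Among genes that were more positive in OSS, those of the tubule's surface and metabolism were the carriers SLC22A6 (2.12), SLC5A10 (1.49) and SLC5A12 (0.972), the hydroxylase CYP4A11 (2.49), the enzyme HOGA1 (0.99), the aminopeptidase ANPEP (1.13), the cadherin CDH16 (0.941) and CLTRN, a partner of amino acid carriers (0.914). In SLC5A12, CDH16 and CLTRN both courses went down, and the one in Static by more. The salt carrier SLC12A1 of the thick ascending limb (0.889), the estrogen receptor ESR1 (0.947), FAM151A (1.52), SYNPR (0.968), the growth regulator BTG1 (0.815), the collagen COL8A1 (1.78) and VTN (2.82) were also more positive in OSS. Those more negative in OSS were SERPINA5 (-1.93), S100A4 (-1.11), CHAC1 (-1.09), the potassium channel KCNK2 (-1.09), BLVRB (-0.692), the lysosomal scaffold LAMTOR1 (-0.484) and the pentose phosphate enzyme PGLS (-0.484).

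COL8A1, VTN and SERPINA5 were near 1 CPM or below in at least 1 of the groups, so their values rest on few counts. Groups of 3 were not tested for single samples that stand apart.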

How the results depend on the processing

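The count of genes that rose in OSS from 48 to 96 h was 87 and of those that fell 60. With the replicate block these were 1335 and 1131, in DESeq2 673 and 432, with the 6 libraries alone 183 and 113, with all 18 libraries in 1 fit 188 and 122, and with the length correction and replicate block together 1318 and 934. With replicates 2 and 3 only, 19 fell. Leaving out 1 replicate gave 1 to 13 rises and 0 to 2 falls: without OSS 48 h replicates 1, 2 and 3 there were 1, 2 and 1 rises, and without OSS 96 h replicates 1, 2 and 3 there were 13, 6 and 3. These fits test fewer libraries. In Static the counts of 0 rises and 5 falls became 21 and 82 with the block, 122 and 164 in DESeq2, 18 and 41 with all 18 libraries, 33 and 81 with the length correction and replicate block, and 0 falls with the 6 libraries alone or replicates 2 and 3 only. Without a filter 1 gene rose in Static. Leaving out 1 replicate gave 0 rises and 0 to 13 falls in Static, with 13 falls without Static 48 h replicate 3. For the difference between OSS and Static, 0 and 0 became 82 and 56 with the block, 75 and 150 in DESeq2, and 75 and 53 with the length correction and replicate block. Leaving out 1 replicate gave 0 to 16 and 0 to 8, with 16 and 8 when Static 48 h replicate 3 was left out, and 2 and 0 when either Static 48 h replicate 2 or OSS 96 h replicate 3 was. Why the block and DESeq2 raised these counts was not tested. No called direction of a named gene reversed under any of the 18 alternatives to the OSS fit. Values near 0 without a call could change sign, as for LRP2, at 0.11 in the main fit and -0.011 with the length correction. With the block 120 of the 179 named genes gained a call and 0 lost one. List members called only with the block had been named for that call, so these gains partly follow from the choice of genes. Median log2 fold changes of all genes moved by -0.0047 without scaling factors, and the list medians named in the report kept their sign under RLE factors and without scaling. With 40154553 counts or more per library, depth limits only genes of a few CPM.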
